A study of Mus musculus with 316 samples.

Results

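The Lin28, Hmga2 and Igf2bp axis was read as 7 genes of 21970 mouse gene rows in a single-cell RNA-seq table: Lin28a, Lin28b, Igf2bp1, Igf2bp2, Igf2bp3, Hmga2 and Arid3a. They were taken by symbol, and each symbol had 1 row. The 4 groups of mouse cells were Eng_ES-HSC (haematopoietic stem cells, HSC, derived from embryonic stem cells and then engrafted), Eng_BM-HSC (engrafted HSC derived from bone marrow), FL_HSC (HSC of fetal liver) and ESC (embryonic stem cells in culture). HSC rebuild the blood after transplantation. The series title names Notch activation in the cells derived from embryonic stem cells, so the axis was compared between engrafted ESC-derived HSC and each of the other 3 groups. The sources used here give no strain, age, host, time after transplant or sort gate, and do not say how the ESC-derived cells were made. Each cell was deposited as a sample, and no animal or culture is named.

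LIN28A and LIN28B are RNA-binding proteins that hold back the maturation of the let-7 microRNAs by binding the terminal loop of their precursors. Mature let-7 lowers transcripts that carry its seed match, and Hmga2, the Igf2bp genes, Arid3a and the Lin28 genes themselves are known let-7 targets. In mouse blood formation, Lin28b with let-7 and Hmga2 is known for the change between fetal and adult HSC, while Lin28a is known as a gene of pluripotent cells. HMGA2 is a chromatin protein that bends AT-rich DNA, the IGF2BP proteins bind and stabilise transcripts such as Igf2, and ARID3A is an AT-rich DNA-binding factor known in B lymphocytes.

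Mature let-7 was not measured here, since the libraries were of polyA RNA. The sequences that tie the 7 genes together are its seed, bases 2 to 8, and the match to that seed in each transcript. RefSeq (GRCm38.p6) lists 9 distinct 5p arms of let-7 and miR-98, and all 9 share the seed printed in capitals in these examples.
let-7a-5p: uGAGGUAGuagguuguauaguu
let-7d-5p: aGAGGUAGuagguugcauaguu
let-7g-5p: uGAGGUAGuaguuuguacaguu
let-7i-5p: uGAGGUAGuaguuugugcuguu
miR-98-5p: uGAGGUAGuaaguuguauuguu
The motif GGAG that LIN28 proteins are known to bind lie in 9 of the 12 let-7 and miR-98 hairpins in that table. Of all 288 mouse hairpins of the same length range, 83 to 108 bases, 44.8% hold GGAG. The let-7g hairpin at chr9:106178840-106178927, plus strand, is shown with that motif in capitals.
let-7g hairpin: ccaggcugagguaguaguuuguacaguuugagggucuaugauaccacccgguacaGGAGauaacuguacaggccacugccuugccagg

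CTACCTC, the match to let-7 bases 2 to 8, was searched on the sense strand of the longest 3′ UTR of each gene in GENCODE M21 (GRCm38). The longer CTACCTCA, with an A opposite base 1, holds CTACCTC within it and was counted once. Matches numbered 2 in Lin28a, 4 in Lin28b, 4 in Igf2bp1, 1 in Igf2bp2, 1 in Igf2bp3, 4 in Hmga2 and 2 in Arid3a. Of 20592 genes with a 3′ UTR of at least 50 bases, 9.12% held a match. Long 3′ UTRs hold more by length alone, so each count was set beside 3′ UTRs of 80% to 125% of its own length. At least 4 matches were found in 0.124% of those as long as Hmga2's, in 0.297% for Lin28b and in 0.333% for Igf2bp1. These shares stand for 3, 4 and 2 genes, with the gene itself counted in each. At least 1 match was in 12.1% of those as long as Igf2bp2's and 13.3% for Igf2bp3. At least 2 were in 2.07% for Lin28a and in 2.38% for Arid3a. The first match of each gene is shown with CTACCTC in capitals, together with the A opposite base 1.
Lin28a, chr4:134005189-134005211, minus strand: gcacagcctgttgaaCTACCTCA
Lin28b, chr10:45381022-45381044, minus strand: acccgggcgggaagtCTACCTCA
Igf2bp1, chr11:95961778-95961800, minus strand: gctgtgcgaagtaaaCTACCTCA
Igf2bp2, chr16:22059473-22059495, minus strand: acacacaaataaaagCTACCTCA
Igf2bp3, chr6:49086787-49086809, minus strand: tgcatttttactcaaCTACCTCA
Hmga2, chr10:120364224-120364246, minus strand: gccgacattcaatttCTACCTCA
Arid3a, chr10:79953895-79953917, plus strand: aaggcaagtttctttCTACCTCA
The other 3 matches of Hmga2 carry other bases opposite base 1, so their last letter is in lower case.
Hmga2, chr10:120362987-120363009, minus strand: ccccactcctcaataCTACCTCt
Hmga2, chr10:120362549-120362571, minus strand: ctgatttgcaaggaaCTACCTCc
Hmga2, chr10:120361691-120361713, minus strand: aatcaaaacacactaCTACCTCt
A match describes letters in the annotated transcript and says nothing of whether let-7 was bound in these cells. Lin28b, Hmga2 and Arid3a lie on chromosome 10. The other 4 genes each lie on a chromosome of their own, 4 for Lin28a, 11 for Igf2bp1, 16 for Igf2bp2 and 6 for Igf2bp3.

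Values are TPM (length-corrected transcript abundances), and a gene was called detected in a cell at a TPM of 1 or more. Cells with at least 1000 detected genes were kept, 261 of 313 after near-identical cells were joined. They were 21 cells of Eng_ES-HSC, 76 of Eng_BM-HSC, 87 of FL_HSC and 77 of ESC. Detected genes per cell had medians of 1609, 2585, 4233 and 5433 in that order of groups, and TPM keeps no read depth, so the depth per cell is unknown. Each group had a single library identifier, which means that a group cannot be told apart from its library, and with 1 sample per group no test was possible. Of 12 HSC markers, at least 3 were detected in 7 cells of Eng_ES-HSC, 74 of Eng_BM-HSC, 86 of FL_HSC and 1 of ESC. Procr and Meis1 were listed at 0 in every kept Eng_ES-HSC cell. At least 3 of 9 granulocyte markers were detected in 15 of the 21 Eng_ES-HSC cells and in 0 cells of the other groups, with a summed level of 0 to 536149 TPM and a median of 834 TPM. At least 3 of 7 erythroid markers were detected in 42.9% of Eng_ES-HSC, 1.32% of Eng_BM-HSC, 13.8% of FL_HSC and 0% of ESC cells. The erythroid marker Hbb-bt was detected in 85.1% of FL_HSC cells. For 7 T and NK cell markers the shares were 28.6% in Eng_ES-HSC, 1.32% in Eng_BM-HSC, 0% in FL_HSC and 3.90% in ESC. The label of Eng_ES-HSC is thus only partly matched by its markers. At least 3 of 8 ESC markers were detected in all 77 ESC cells and in 0 HSC of any source. For 5 endothelial markers, at least 3 were detected in 17.2% of FL_HSC cells and in 0% of the other groups. Of 6 hepatoblast markers in FL_HSC, Alb, Ttr and Serpina1a were listed at 0 in every kept cell, Afp and Apoa1 were each detected in 4.60% and Fgb in 2.30%, and no cell had 3 of them.

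Lin28b was a transcript of the fetal liver cells. It was listed at 0 in all 21 Eng_ES-HSC cells, which allows a share of up to 14.3%. In Eng_BM-HSC it ranged over 0 to 1.42 TPM with a median of 0 and was detected in 1 of 76 cells. FL_HSC ranged over 0 to 213 TPM with a median of 0 and a detected share of 28 of 87 cells, or 32.2% (exact 95% interval 22.6 to 43.1%). Among ESC, 1 of 77 cells had it, at 30.1 TPM. High cells were thus nearly all FL_HSC, although most FL_HSC cells overlapped the other groups at or near 0. Where it was detected in FL_HSC, its median was 15.3 TPM, and 3 cells reached 100 TPM. The difference of mean log2(TPM + 1) was -1.40 for Eng_ES-HSC minus FL_HSC, -1.34 for Eng_BM-HSC minus FL_HSC and 1.29 for FL_HSC minus ESC. No gap between neighbouring group means of Lin28b was larger than the larger SD over cells.

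Lin28a had its highest levels in ESC. It was below 1 TPM in all 21 Eng_ES-HSC cells, with a highest value of 0.771 TPM, and listed at 0 in all 76 Eng_BM-HSC cells, which allows up to 3.95%. FL_HSC had it in 2 of 87 cells, the higher at 1.95 TPM. ESC ranged over 0 to 269 TPM with a median of 0 and had it in 24 of 77 cells, or 31.2% (21.1 to 42.7%). All values above 1.95 TPM were from ESC, and 42 ESC cells were listed at 0. The differences against ESC were -1.39 for Eng_ES-HSC, -1.43 for Eng_BM-HSC and -1.40 for FL_HSC, and the other 3 comparisons lay between -0.03 and 0.04. The 2 Lin28 genes were never detected in the same cell, in any group, while 28 FL_HSC cells had Lin28b without Lin28a and 24 ESC cells had Lin28a without Lin28b. With Lin28a in 2 FL_HSC cells and Lin28b in 1 ESC cell, few shared cells were possible, so their absence says little.

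**Figure D1:**
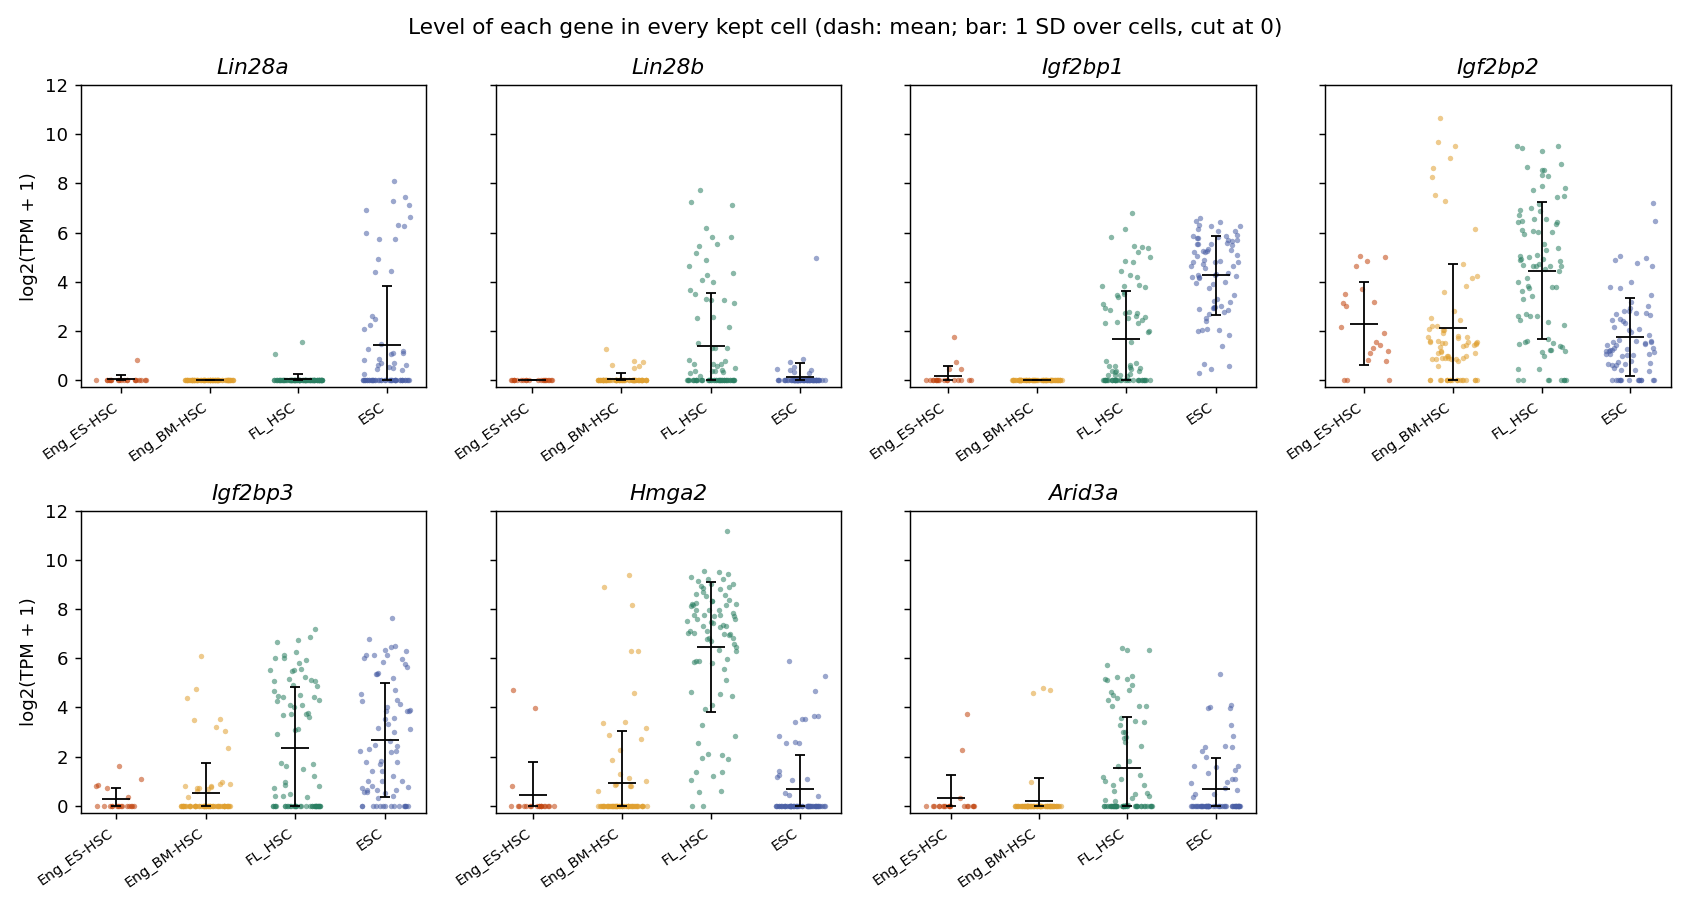
Level of the 7 genes in each cell (21 of Eng_ES-HSC, 76 of Eng_BM-HSC, 87 of FL_HSC and 77 of ESC), as log2(TPM + 1), with the mean as a dash and 1 SD over cells as a bar cut at 0. Hmga2 stands high in FL_HSC with a median of 156 TPM, Igf2bp1 in ESC with a median of 23.7 TPM, and Igf2bp2 has values in all 4 groups.

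Hmga2 separated the fetal liver cells from the other groups more than the other 6 genes did, by the difference of means. Eng_ES-HSC ranged over 0 to 25.5 TPM with a median of 0, and Eng_BM-HSC over 0 to 667 TPM with a median of 0. FL_HSC ranged over 0 to 2332 TPM with a median of 156 TPM, and ESC over 0 to 58.8 TPM with a median of 0. FL_HSC were high, with 56 of 87 cells at 100 TPM or more against 0 cells of Eng_ES-HSC, 3 of Eng_BM-HSC and 0 of ESC, but the ranges overlapped. Detection was 9.52% (1.17 to 30.4%) in Eng_ES-HSC, 21.1% (12.5 to 31.9%) in Eng_BM-HSC, 95.4% in FL_HSC and 22.1% (13.4 to 33%) in ESC. Mean log2(TPM + 1) was 0.45 ± 1.32 in Eng_ES-HSC, 0.93 ± 2.11 in Eng_BM-HSC, 6.47 ± 2.64 in FL_HSC and 0.67 ± 1.40 in ESC (SD over cells). The gap between FL_HSC and the next group, Eng_BM-HSC, was larger than their SDs added together. Among the 3 lower groups no gap passed the larger SD. The differences were -6.01 for Eng_ES-HSC minus FL_HSC, -5.54 for Eng_BM-HSC minus FL_HSC and 5.80 for FL_HSC minus ESC. In Eng_BM-HSC the signal sat in few cells: the top 5 held 95.4% of the summed TPM, and the second highest was at 475 TPM.

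Hmga2 was also found more often in fetal liver cells at matched numbers of detected genes. In cells with 1000 to 2000 detected genes it was found in 0 of 12 Eng_ES-HSC, 3 of 18 Eng_BM-HSC and 7 of 11 FL_HSC cells. At 2000 to 3000 genes the counts were 1 of 5 Eng_ES-HSC, 10 of 47 Eng_BM-HSC and 7 of 7 FL_HSC, against 0 of 4 ESC. The differences in that window were -5.48 for Eng_ES-HSC minus FL_HSC and -5.53 for Eng_BM-HSC minus FL_HSC. It was in all 20 FL_HSC cells of the next window, in all 33 with 4000 to 5000 genes and in all 16 with 5000 or more. Over all 87 FL_HSC cells, Spearman rho of Hmga2 with detected genes was 0.05.

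**Figure D2:**
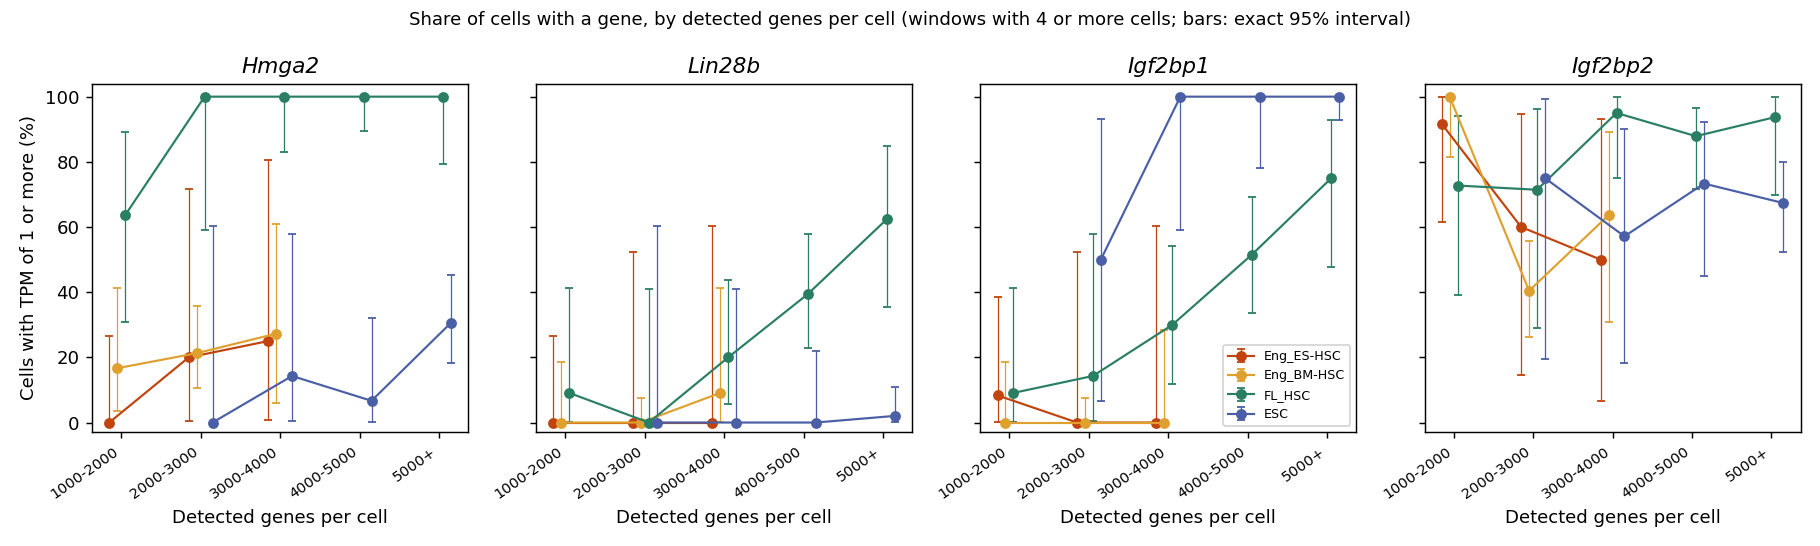
Share of cells with Hmga2, Lin28b, Igf2bp1 or Igf2bp2 at a TPM of 1 or more, by the number of detected genes per cell, with exact 95% intervals for counting error, in windows of 4 or more cells. Hmga2 in FL_HSC is at 100% from 2000 genes up, Lin28b and Igf2bp1 in FL_HSC have higher shares in gene-rich cells, and Igf2bp2 in Eng_BM-HSC is at 100% in the gene-poor window and 40.4% in the next.

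Igf2bp1 was the Igf2bp gene of embryonic stem cells and a minor one in fetal liver. It was detected in 1 of 21 Eng_ES-HSC cells, at 2.40 TPM, and listed at 0 in all 76 Eng_BM-HSC cells. FL_HSC ranged over 0 to 110 TPM with a median of 0.400 TPM, and 42.5% of cells had it (32 to 53.6%). ESC had a median of 23.7 TPM and a highest value of 95.5 TPM, and 94.8% of cells had it (87.2 to 98.6%). No ESC cell was listed at 0, so ESC were nearly all positive while FL_HSC held both cells without it and cells in the ESC range. The differences were -4.09 for Eng_ES-HSC minus ESC, -4.26 for Eng_BM-HSC minus ESC and -2.60 for FL_HSC minus ESC. Against fetal liver they were -1.49 for Eng_ES-HSC and -1.65 for Eng_BM-HSC. Only the gap between ESC and FL_HSC passed the larger SD among neighbouring groups.

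Igf2bp3 was shared by fetal liver cells and embryonic stem cells. Eng_ES-HSC reached 2.05 TPM with a median of 0, and Eng_BM-HSC 66.5 TPM with a median of 0. FL_HSC ranged over 0 to 146 TPM with a median of 1.30 TPM, and ESC over 0 to 199 TPM with a median of 3.74 TPM. Detection was 9.52% in Eng_ES-HSC, 10.5% in Eng_BM-HSC, 50.6% in FL_HSC (39.6 to 61.5%) and 64.9% in ESC (53.2 to 75.5%). FL_HSC and ESC overlapped over nearly their whole ranges, and the difference FL_HSC minus ESC was -0.34, within the spread over cells. The engrafted groups lay below both, at -2.10 for Eng_ES-HSC and -1.84 for Eng_BM-HSC against FL_HSC, and at -2.43 for Eng_ES-HSC and -2.18 for Eng_BM-HSC against ESC. Within windows of detected genes these values turned. At 1000 to 2000 genes they were 0.18 for Eng_ES-HSC minus FL_HSC and 0.55 for Eng_BM-HSC minus FL_HSC, and at 2000 to 3000 genes -1.30 and -1.05. At 3000 to 4000 genes, Eng_BM-HSC minus FL_HSC was -1.97, Eng_BM-HSC minus ESC 0.04 and FL_HSC minus ESC 2.01. FL_HSC minus ESC was 0.88 at 4000 to 5000 genes and -0.39 at 5000 or more.

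Igf2bp2 was the one gene of the 7 at a TPM of 1 or more in most cells of every group. Eng_ES-HSC ranged over 0 to 31.6 TPM with a median of 2.81 TPM, and Eng_BM-HSC over 0 to 1597 TPM with a median of 1.66 TPM. FL_HSC had a median of 23.9 TPM and a highest value of 726 TPM, and ESC a median of 1.48 TPM and a highest value of 145 TPM. FL_HSC were higher by their median, and all 4 ranges overlapped widely. Detection was 76.2% in Eng_ES-HSC (52.8 to 91.8%), 57.9% in Eng_BM-HSC (46 to 69.1%), 87.4% in FL_HSC (78.5 to 93.5%) and 66.2% in ESC (54.6 to 76.6%). At 10 TPM or more the shares were 28.6% in Eng_ES-HSC, 18.4% in Eng_BM-HSC, 64.4% in FL_HSC and 14.3% in ESC. The differences were -2.15 for Eng_ES-HSC minus FL_HSC, -2.34 for Eng_BM-HSC minus FL_HSC and 2.70 for FL_HSC minus ESC. No neighbouring gap passed the larger SD.

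Among kept cells of the engrafted groups, Igf2bp2 was highest in the window of 1000 to 2000 genes, which was not so in fetal liver or embryonic stem cells. All 18 Eng_BM-HSC cells with 1000 to 2000 genes had it, at 1.95 to 1597 TPM with a median of 42.8 TPM. At 2000 to 3000 genes 19 of 47 had it, at 0 to 6.06 TPM with a median of 0.856 TPM. The 8 Eng_BM-HSC cells at 100 TPM or more were all in the gene-poor window. Eng_ES-HSC ran the same way, with 11 of 12 cells and a median of 9.27 TPM in the first window against 3 of 5 cells and 1.26 TPM in the second. FL_HSC held a median of 21.9 TPM in the first window and 28 TPM in the second. Spearman rho of Igf2bp2 with detected genes was -0.58 in Eng_ES-HSC, -0.54 in Eng_BM-HSC, 0.09 in FL_HSC and 0.02 in ESC. The difference Eng_BM-HSC minus FL_HSC was 1.99 in the first window and -3.13 in the second. The mean level of the 12 HSC markers had a rho of -0.67 with Igf2bp2 in Eng_ES-HSC and -0.40 in Eng_BM-HSC. With detected genes that mean had a rho of 0.55 in Eng_ES-HSC and 0.53 in Eng_BM-HSC. The part of gene number in these levels was not tested.

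Arid3a was found in some fetal liver cells and in fewer embryonic stem cells. Eng_ES-HSC had it in 2 of 21 cells with a highest value of 12.3 TPM, and Eng_BM-HSC in 3 of 76 with a highest value of 26.4 TPM. FL_HSC ranged over 0 to 84.8 TPM with a median of 0.024 TPM, and 39.1% had it (28.8 to 50.1%). ESC reached 40.2 TPM with a median of 0, and 24.7% had it (15.6 to 35.8%). The FL_HSC and ESC intervals overlapped, and every group had most of its cells below 1 TPM. The differences were -1.23 for Eng_ES-HSC minus FL_HSC, -1.33 for Eng_BM-HSC minus FL_HSC and 0.84 for FL_HSC minus ESC. At 1000 to 2000 genes they were -0.60 for Eng_ES-HSC minus FL_HSC and -0.34 for Eng_BM-HSC minus FL_HSC. At 2000 to 3000 genes these were -0.04 and -0.57, and Eng_BM-HSC minus FL_HSC was -0.79 at 3000 to 4000. FL_HSC minus ESC was 0.52 at 3000 to 4000 genes, 1.69 at 4000 to 5000 and 1.22 at 5000 or more.

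**Figure D3:**
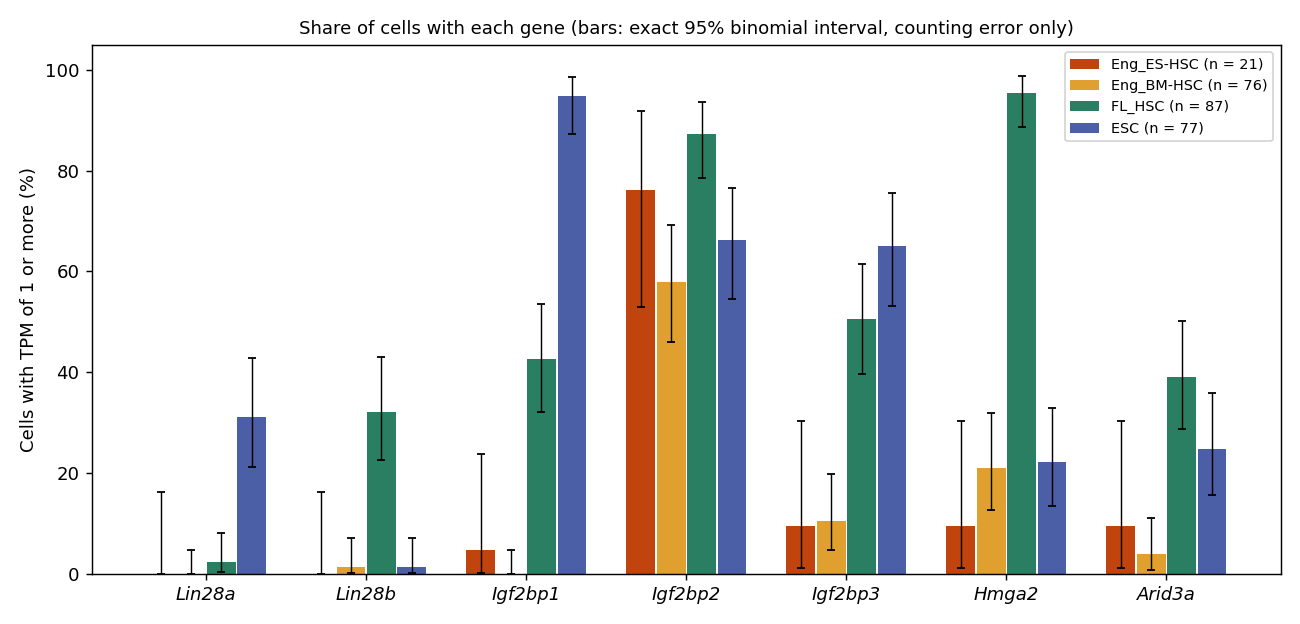
Share of cells with each of the 7 genes at a TPM of 1 or more in Eng_ES-HSC, Eng_BM-HSC, FL_HSC and ESC, with exact 95% binomial intervals that cover counting error only. FL_HSC lead for Hmga2 at 95.4% and ESC for Igf2bp1 at 94.8%, while Igf2bp2 lies between 57.9% and 87.4% in all 4 groups.

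For each pair of groups, a difference of at least 1 in mean log2(TPM + 1) was counted, and the same was done over all 13239 genes whose mean TPM reached 1 in any group. Between Eng_ES-HSC and Eng_BM-HSC, 0 of the 7 genes differed by 1, with differences from -0.48 (Hmga2) to 0.20 (Igf2bp2), while 8.55% of all genes were lower and 2.22% higher. That count depended on how cells were averaged. With log2 of the mean TPM, which gives high cells more weight, Igf2bp2 was at -2.83, Hmga2 at -2.95 and Igf2bp3 at -1.29. Under that setting 44.3% of all genes were lower by at least 1, with an all-gene median of -0.67, so 3 of 7 lay near that share. In cells with 1000 to 2000 genes Igf2bp2 was at -2.37. For Eng_ES-HSC minus FL_HSC, 6 of 7 were lower and 0 higher, beside 35% and 2.26% of all genes. Eng_BM-HSC minus FL_HSC gave the same 6 lower and 0 higher, beside 29.1% and 1.84%. Lin28a was the exception in both. These 2 comparisons share the FL_HSC cells. The median of the 7 was -1.49 for Eng_ES-HSC and -1.65 for Eng_BM-HSC, and the median of all genes was -0.52 and -0.39 for the same 2 comparisons. Both counts were smaller in cells of 1000 to 3000 genes, a setting that leaves 11 FL_HSC cells below 2000 genes and 7 above. There, 2 of the 7, Hmga2 and Igf2bp2, were lower than FL_HSC by 1 in each comparison, beside 11.8% of all genes for Eng_ES-HSC and 5.34% for Eng_BM-HSC. Hmga2 was then at -4.25 for Eng_ES-HSC minus FL_HSC and -3.73 for Eng_BM-HSC minus FL_HSC.

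Against embryonic stem cells the axis split by gene. Eng_ES-HSC had 3 of 7 lower (Lin28a, Igf2bp1, Igf2bp3) and 0 higher, beside 40.9% and 2.23% of all genes. Eng_BM-HSC had the same 3 lower and 0 higher, beside 35.6% and 3.22%. The share of the 7 that was lower lay near that of all genes in both. FL_HSC minus ESC had 2 lower (Lin28a, Igf2bp1) and 3 higher (Lin28b, Igf2bp2, Hmga2), beside 17.7% and 10.7%. These 3 comparisons share the ESC cells. Igf2bp2 in the engrafted groups lay above ESC by 0.56 for Eng_ES-HSC and 0.36 for Eng_BM-HSC. With cells of at least 2000 genes those differences were -0.77 and -0.78 for the same 2 groups, so their direction turned with the gene-poor cells.

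**Figure D4:**
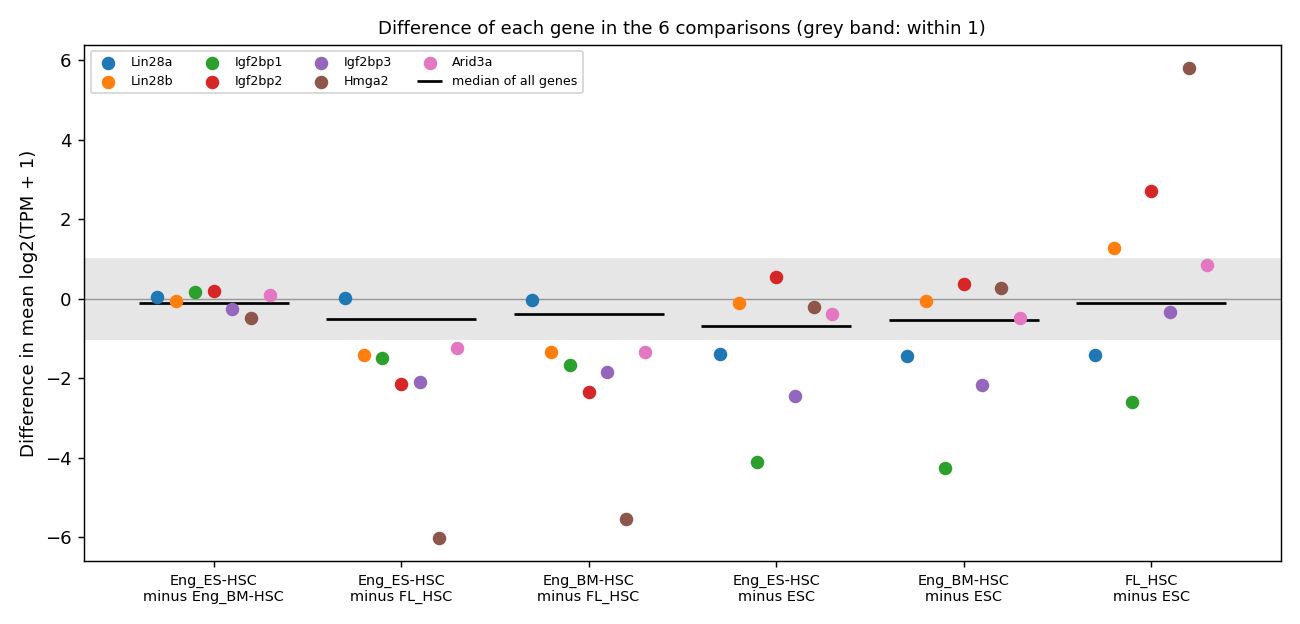
Difference of mean log2(TPM + 1) for the 7 genes in the 6 comparisons, with the median of 13239 genes as a black line and differences within 1 in grey. All 7 lie within 1 between Eng_ES-HSC and Eng_BM-HSC, and Hmga2 lies at -6.01 and -5.54 in the comparisons of Eng_ES-HSC and Eng_BM-HSC with FL_HSC.

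The leading Igf2bp gene differed between groups. TPM is per transcript length, so the 3 genes can be ranked within a cell. Of 17 Eng_ES-HSC cells with any of them detected, Igf2bp2 led in 16, and of 48 Eng_BM-HSC cells it led in 43. In FL_HSC, Igf2bp2 led in 53 of 84 cells, Igf2bp3 in 21 and Igf2bp1 in 10. Among 74 ESC cells, Igf2bp1 led in 53, Igf2bp3 in 16 and Igf2bp2 in 5. All 3 were detected together in 0 cells of Eng_ES-HSC, 0 of Eng_BM-HSC, 20 of FL_HSC and 34 of ESC. Igf2bp2 detection in Eng_BM-HSC was 18 of 18 cells at 1000 to 2000 genes, 19 of 47 at 2000 to 3000 and 7 of 11 at 3000 to 4000. In Eng_ES-HSC it was 11 of 12 in the first window and 3 of 5 in the second. The leading gene was not split by detected genes, so the part of gene number was not tested.

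Fetal liver cells and embryonic stem cells often carried several genes of the axis at once. The number of the 7 detected per cell ranged over 0 to 2 in Eng_ES-HSC with a median of 1, 0 to 2 in Eng_BM-HSC with a median of 1, 1 to 6 in FL_HSC with a median of 3 and 0 to 5 in ESC with a median of 3. No cell of either engrafted group had 3. This number went with detected genes, with a Spearman rho of 0.65 in FL_HSC and 0.53 in ESC, and of -0.05 in Eng_ES-HSC and -0.26 in Eng_BM-HSC. Detection of Lin28b in FL_HSC was 1 of 11 cells at 1000 to 2000 genes and 10 of 16 at 5000 or more, and of Igf2bp1 1 of 11 and 12 of 16. For Igf2bp3 in FL_HSC the counts were 0 of 11 and 11 of 16, and for Arid3a 1 of 11 and 9 of 16. Lin28b differences for Eng_BM-HSC minus FL_HSC were -0.61, 0.01 and -0.83 in the 3 windows up to 4000 genes. The lower shares of Lin28b, Igf2bp1, Igf2bp3 and Arid3a in the gene-poor engrafted groups cannot be told apart from that dependence by the share alone.

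Within FL_HSC, all 28 cells with Lin28b also had Hmga2, while 55 cells had Hmga2 without Lin28b, and 4 had neither. Hmga2 was in 93.2% of the FL_HSC cells without Lin28b. The levels of the pair had a Spearman rho of 0.02 over 87 cells. Lin28b was found with Igf2bp1 in 18 cells, without it in 10, and Igf2bp1 without Lin28b in 19 (rho 0.21). With Arid3a, Lin28b shared 16 cells, was alone in 12 and was missing from 18 Arid3a cells (rho 0.32). These values share the libraries and the number of genes per cell. In ESC, all 50 cells with Igf2bp3 also had Igf2bp1, which 23 more had alone (rho 0.36 over 77 cells). Igf2bp1 and Igf2bp3 had rho of 0.52 and 0.55 with detected genes in ESC. In Eng_ES-HSC, Igf2bp2 was in 16 cells and Hmga2 in 2, and they shared 0.

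**Figure D5:**
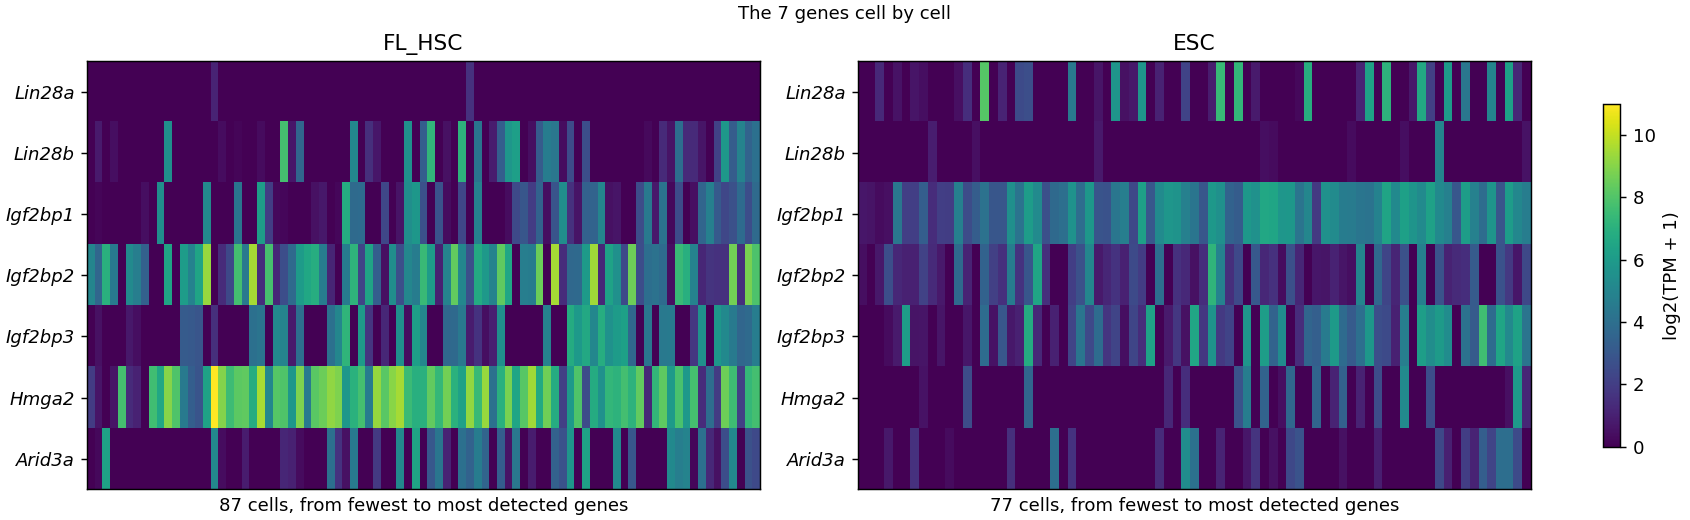
Log2(TPM + 1) of the 7 genes (rows) in each of the 87 FL_HSC cells and 77 ESC cells (columns), ordered from the fewest to the most detected genes. Hmga2 fills nearly the whole FL_HSC row and Igf2bp1 nearly the whole ESC row, while Lin28b in FL_HSC and Igf2bp3 in ESC are found mostly toward the gene-rich end.

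Genes with the most similar pattern were ranked by Pearson r of log2(TPM + 1) over cells. In the 87 FL_HSC cells Hmga2 was nearest to Gimap6 (r = 0.80), Calcrl (0.77), Ifitm1 (0.76), Arhgdib (0.74) and Lcp1 (0.74). Gimap6 is a GTPase of lymphoid cells, Calcrl an adrenomedullin receptor subunit, and Lcp1 a leukocyte actin-bundling protein. The mean level of the 12 HSC markers had r = 0.70 and rho = 0.52 with Hmga2 over the same cells, and rho = 0.43 with detected genes. Over all 261 cells the genes near Hmga2 included Dok2 (0.77), an adaptor of blood cells, Fstl1 (0.68), Ebi3 (0.66) and Klf6 (0.65).

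Igf2bp1 in the 77 ESC cells was nearest to Cox7c (0.70), Dppa5a (0.69), Actb (0.68), Snrpd2 (0.68) and Atpif1 (0.67). Over all 261 cells it was nearest to Dppa5a (0.74) and Tfcp2l1 (0.74), both known in pluripotent cells, then Akap12 (0.74), Bcat1 (0.73) and Fabp3 (0.73). Igf2bp2 in FL_HSC was nearest to Hdac4 (0.68), a histone deacetylase, Ahdc1 (0.67), Bean1 (0.66), Pde6a (0.65) and Fam227a (0.65). Over all cells Igf2bp2 was nearest to Npffr1 (0.71), a neuropeptide receptor gene, Pde6a (0.69), known for its role in photoreceptors, Bhlhe41 (0.69), Acnat1 (0.67) and Gprc5c (0.67). In the 21 Eng_ES-HSC cells the mean level of the B-cell marker list had r = 0.76 with Igf2bp2. Ebf1 was its only member detected there, in 100% of cells, with Cd79a and Cd79b listed at 0. It was also detected in 92.2% of ESC cells. In Eng_ES-HSC the list had a rho of -0.52 with detected genes, and Igf2bp2 had -0.58. The part of gene number in that r was not tested.

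The other 4 genes had weaker neighbours. Igf2bp3 in ESC had its highest r with Adrm1 (0.64), Nit2 (0.62), Aasdhppt (0.61), Usp7 (0.61) and Frg1 (0.60), and over all cells with Coq7 (0.52), Slc31a1 (0.50), Hspd1 (0.49), Ilf2 (0.49) and Psmc3 (0.49). Lin28a in ESC had Lifr (0.50), the LIF receptor, Krt8 (0.49), Prpsap1 (0.48), Nuf2 (0.45) and Abt1 (0.44), and over all cells Mpzl2 (0.55), Krt8 (0.53), Enah (0.51), AU018091 (0.50) and Trap1a (0.50). Lin28b in FL_HSC had Nob1 (0.49), a ribosome assembly factor, Znhit1 (0.48), Bri3bp (0.48), Ric8 (0.47) and Trappc13 (0.45), and over all cells Nob1 (0.49), Dok2 (0.46), Anapc5 (0.44), Atxn7l1 (0.43) and Asph (0.43). Arid3a had no r above 0.46 in FL_HSC, with Pxmp4 and Mier1 first, and none above 0.38 over all cells, with Sri first. These r describe sparse values from the same libraries.

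Among 11 genes listed for let-7 biogenesis and turnover, most of which act on the precursors, more were lower than higher in each HSC group against embryonic stem cells. For Eng_ES-HSC minus ESC 8 were lower by at least 1 and 0 higher, for Eng_BM-HSC minus ESC 7 and 0, and for FL_HSC minus ESC 3 and 0. All genes also ran lower, with 40.9%, 35.6% and 17.7% lower and 2.23%, 3.22% and 10.7% higher in those comparisons. The list medians were -1.64, -1.33 and -0.55 in those 3 comparisons, and the all-gene medians -0.68, -0.54 and -0.12. Trim71, a let-7 target that encodes an RNA-binding ubiquitin ligase of stem cells, was detected in 0% of Eng_ES-HSC, 0% of Eng_BM-HSC, 8.05% of FL_HSC and 94.8% of ESC cells. Drosha, the nuclease of the first cut, was detected in 4.76%, 7.89%, 29.9% and 80.5% of the same groups. Median detected genes per cell rose in the same order, from 1609 in Eng_ES-HSC to 5433 in ESC. This list and the lists below were not split by detected genes, so the part of gene number was not tested. Zcchc11 and Zcchc6, the uridylyl transferases that LIN28A recruits, differed by less than 1 for FL_HSC minus ESC, at -0.31 for Zcchc11 and 0.65 for Zcchc6. Against FL_HSC, 5 of the 11 were lower in Eng_ES-HSC and 2 in Eng_BM-HSC, beside 35% and 29.1% of all genes. Between the engrafted groups 0 of 11 differed by 1, beside 8.55% of all genes lower and 2.22% higher in Eng_ES-HSC.

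Of 22 other let-7 target genes, 13 were lower by at least 1 and 0 higher for Eng_ES-HSC minus FL_HSC, with a median of -1.18. For Eng_BM-HSC minus FL_HSC 10 were lower and 2, Myc and Cdk6, higher, with a median of -0.95. The shares of all genes lower were 35% and 29.1% in these comparisons, and the all-gene medians -0.52 and -0.39. Hmga1, the paralogue of Hmga2, had the largest difference of the list in both, -5.84 for Eng_ES-HSC and -5.12 for Eng_BM-HSC. It was detected in 19% of Eng_ES-HSC, 34.2% of Eng_BM-HSC, 94.3% of FL_HSC and 70.1% of ESC cells, so ESC had Hmga1 in most cells and Hmga2 in few. The RAS gene Nras was at -4.92 for Eng_ES-HSC and -2.50 for Eng_BM-HSC against FL_HSC. For Eng_ES-HSC minus Eng_BM-HSC 6 of the 22 were lower and 0 higher: Myc (-1.92), Mycn (-1.96), Nras (-2.42), Ccnd2 (-2.21), Cdk6 (-2.41) and Igf1r (-1.44). Cells with at least 3 granulocyte, erythroid or T and NK cell markers were also more frequent in Eng_ES-HSC, at 71.4%, 42.9% and 28.6%, against 0%, 1.32% and 1.32% in Eng_BM-HSC. The part of those cells in these differences was not tested. Over all genes, 8.55% were lower in this comparison. Against ESC the list divided, with 10 lower and 2 higher for Eng_ES-HSC, 9 and 4 for Eng_BM-HSC, and 3 and 8 for FL_HSC. All genes gave 40.9% lower and 2.23% higher for Eng_ES-HSC, 35.6% and 3.22% for Eng_BM-HSC, and 17.7% and 10.7% for FL_HSC. The cyclin gene Ccnd2 was detected in 42.9% of Eng_ES-HSC, 76.3% of Eng_BM-HSC, 90.8% of FL_HSC and 2.60% of ESC cells.

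Of 9 paralogues and partners of the axis, 8 were in the table and 7 passed a mean TPM of 1. For Eng_ES-HSC minus FL_HSC 6 were lower and 0 higher, and for Eng_BM-HSC minus FL_HSC 5 and 0, beside 35% and 29.1% of all genes lower. The RNA-binding protein gene Syncrip was among them, at -2.76 for Eng_ES-HSC and -2.03 for Eng_BM-HSC. Btk, a B-cell kinase that ARID3A is known to bind, was detected in 0% of Eng_ES-HSC, 9.21% of Eng_BM-HSC, 27.6% of FL_HSC and 0% of ESC cells. Against ESC, 6 were lower for Eng_ES-HSC and 5 for Eng_BM-HSC with 0 higher, beside 40.9% and 35.6% of all genes lower. FL_HSC had 1 lower and 3 higher than ESC, beside 17.7% and 10.7% of all genes. Between the engrafted groups Elavl1, an RNA-stabilising protein gene, was the 1 gene lower in Eng_ES-HSC by at least 1, beside 8.55% of all genes.

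Transcripts bound by IGF2BP proteins did not move as a block. Igf2, a fetal growth factor, was detected in 28.7% of FL_HSC cells and in 0% of Eng_ES-HSC, Eng_BM-HSC and ESC cells, so ESC had Igf2bp1 and Igf2bp3 without Igf2. Actb was detected in 100% of cells in every group, with a difference of 0.98 for Eng_ES-HSC minus FL_HSC and 0.54 for Eng_BM-HSC minus FL_HSC. Cd44, an adhesion receptor, was at -2.47 and -2.08 in the same comparisons and was detected in 0% of ESC. Myc was at 1.59 for Eng_BM-HSC minus FL_HSC, and the proliferation gene Mki67 at -2.45 for that comparison and at 1.67 for Eng_ES-HSC minus Eng_BM-HSC. Over these 5 genes, lower and higher counts were 1 and 1 for Eng_ES-HSC minus Eng_BM-HSC, 2 and 0 for Eng_ES-HSC minus FL_HSC, and 3 and 1 for Eng_BM-HSC minus FL_HSC. Against ESC they were 0 and 2 for Eng_ES-HSC, 1 and 3 for Eng_BM-HSC, and 0 and 3 for FL_HSC. With 5 genes these counts say little beside the all-gene shares, such as 35% lower for Eng_ES-HSC minus FL_HSC.

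Of 8 other genes known in fetal HSC, 6 passed a mean TPM of 1. Of these, 3 were lower and 0 higher than FL_HSC in Eng_ES-HSC and likewise in Eng_BM-HSC, beside 35% and 29.1% of all genes lower. Igf2 was at -1.32 in both, Mycn at -3.52 for Eng_ES-HSC and -1.56 for Eng_BM-HSC, and Ezh2, a Polycomb methyltransferase gene, at -2.61 for Eng_ES-HSC and -2.66 for Eng_BM-HSC. Cbx2, a Polycomb gene under let-7, was listed at 0 or below 1 TPM in all kept engrafted cells and was detected in 18.4% of FL_HSC and 16.9% of ESC cells. Sox17, a factor of fetal HSC in mouse, was detected in 2.30% of FL_HSC cells and in 0% of the other groups. Between the engrafted groups Mycn alone was lower, in Eng_ES-HSC, beside 8.55% of all genes. Against ESC, 3 were lower for Eng_ES-HSC, 3 for Eng_BM-HSC and 1 for FL_HSC, with 1 higher for FL_HSC. Of all genes, 40.9%, 35.6% and 17.7% were lower in those comparisons, and 10.7% were higher for FL_HSC.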

How the data were processed

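Single-cell polyA RNA-seq of 316 mouse cells was deposited as 1 table of 22073 rows. HISAT 0.1.6, Salmon 0.3.2 and GRCm38 come from the submitters' processing notes, which give no role for each. For library kit, annotation and cell isolation, the method is not given in the sources used here. Values were deposited on a natural log scale, ln(TPM + 1). This was read from the values, since exp(x) - 1 gave totals of 414503 to 962583 TPM per cell, and the labels do not state it. TPM keeps no depth. Differences of log2(TPM + 1), with a pseudocount of 1, understate low genes.

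Cells of a group with r above 0.9 between log2 profiles were averaged into 1, as they could be a library deposited again. These were Eng_ES-HSC 31 and 34 (r = 0.988), Eng_ES-HSC 33 and 36 (r = 0.973) and ESC 22 and 64 (r = 0.942). The next r was 0.839. Cells with fewer than 1000 detected genes were left out, 26 of Eng_ES-HSC, 19 of Eng_BM-HSC and 7 of FL_HSC. Doublets were not called and cells were not clustered. Shares have exact Clopper-Pearson 95% intervals, and a share of 0 allows 3 cells of the total, for counting error alone.

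Groups were compared by differences of means, with no test. The members and gene lists were chosen with earlier results of these data known. Named genes were the 7, the list genes, and for each of the 7 detected in at least 20% of cells of some group the 5 genes of highest r over all cells and in its leading group, among genes that reached a mean of 10 TPM and 20% of cells there. Predicted, mitochondrial, ribosomal protein, small RNA, spike-in and cassette rows were skipped, and Xist, H19 and Ighm were not used. Some genes that the rule takes are not reported here. Alternatives were other pseudocounts, cell and gene filters, log2 of mean TPM, rescaled TPM, odd- or even-numbered cells and other detection thresholds. The steps were tested on simulated data. Python 3.11.15, numpy 2.4.6, pandas 2.3.3, scipy 1.17.1 and matplotlib 3.10.9 were used.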

Additional observations from a re-analysis of the deposited data

Results flagged for a closer look

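Most of the 52 cells left out for fewer than 1000 detected genes held Igf2bp2. Lin28a, Lin28b, Igf2bp1 and Arid3a were each detected in 0 left-out cells of Eng_ES-HSC, Eng_BM-HSC and FL_HSC. Igf2bp2 was detected in all 26 left-out Eng_ES-HSC cells, a share of 100%, at 1.75 to 296 TPM with a median of 21 TPM. It was also in 94.7% of the 19 left-out Eng_BM-HSC cells, with a median of 9.66 TPM and a highest value of 751 TPM, and in 85.7% of the 7 left-out FL_HSC cells, with a median of 2.69 TPM. Igf2bp3 was detected in 15.4% of the left-out Eng_ES-HSC cells, 4 of 26, with an exact 95% interval of 4.36 to 34.9%. Hmga2 was detected in 57.1% of the left-out FL_HSC cells, 4 of 7 (18.4 to 90.1%), and in 0 of the left-out Eng_ES-HSC and 0 of the left-out Eng_BM-HSC cells.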

How the results depend on the processing

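Differences of the 7 genes counted as kept when one of at least 1 stayed within 1.5 times its value, or a smaller one stayed below 1. Of those recomputed, 325 were kept and 95 moved, and 0 of at least 1 changed sign. Hmga2 lay between -8.75 and -3.20 against FL_HSC in both engrafted groups under all settings run. Counts of the 7 genes past a difference of 1 that moved, with causes not tested, were these. With a pseudocount of 10, lower counts were 2 for Eng_ES-HSC minus FL_HSC, 2 for Eng_BM-HSC minus FL_HSC, 1 for Eng_ES-HSC minus ESC, 1 for Eng_BM-HSC minus ESC and 1 for FL_HSC minus ESC. The shares of all genes lower were 16%, 11.3%, 16.1%, 12.8% and 4.76% in that order. With cells of 1000 to 3000 genes, the lower counts in the same order were 2, 2, 1, 1 and 0, and the higher counts were 1 for Eng_ES-HSC minus ESC and 1 for Eng_BM-HSC minus ESC. All genes gave 11.8%, 5.34%, 7.08%, 4.58% and 7.22% lower, and 8.96% and 16.5% higher for those 2 comparisons with ESC. With log2 of the mean TPM, 3 were lower for Eng_ES-HSC minus Eng_BM-HSC and 2 higher for Eng_BM-HSC minus ESC. The all-gene shares beside these were 44.3% and 27%. With no cell filter, 1 was higher for Eng_ES-HSC minus Eng_BM-HSC and 1 for Eng_ES-HSC minus ESC, beside 0.889% and 1.13% of all genes. With odd-numbered cells, 1 was lower for Eng_ES-HSC minus Eng_BM-HSC and 1 higher for Eng_ES-HSC minus ESC, beside 10.8% and 3.26% of all genes. At a threshold of 10 TPM, 18 detection shares left their exact interval at 1 TPM and 10 did not. No paired analysis was possible because cell numbers only name cells. The 21 Eng_ES-HSC cells, 1 library per group and unknown depth limit every comparison.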
